A study of Mus musculus with 8 samples.

Results

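Glycolysis converts glucose to pyruvate in the cytosol, and lactate dehydrogenase can then reduce the pyruvate to lactate, which leaves the cell through monocarboxylate transporters. Most steps are served by several isoforms encoded by different genes, and pyruvate dehydrogenase kinases hold pyruvate back from the mitochondria. Long-term hematopoietic stem cells are known for relying on glycolysis more than their progeny do, and many glycolytic genes are targets of the hypoxia-inducible factor HIF, whose degradation needs iron-dependent prolyl hydroxylases. Eltrombopag, a drug given to raise platelet and blood cell counts, also binds iron, and the cells were profiled after culture with and without it.

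The genes described here are the glycolytic enzymes with their isoforms, 2 glucose transporters, 2 bifunctional regulators of fructose-2,6-bisphosphate, the 4 pyruvate dehydrogenase kinases and 2 lactate transporters. They were chosen by gene symbol, each through a probe set that the platform annotation pairs with that symbol alone. Of 33 genes listed, 29 were measured, out of 19505 genes in all, and each had 1 probe set. Gpi1, Pfkfb1, Pfkfb2 and Eno1 had no probe set named for them and were not analysed here.

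The samples were hematopoietic stem cells from bone marrow of mice aged 6 to 10 weeks, sorted as lineage-negative cells with c-Kit, Sca-1 and CD150 and without CD48 on their surface. They were kept in liquid culture with stem cell factor at 100 ng/ml for 16 h, with eltrombopag at 10 µg/ml in 4 arrays and with sterile water as the vehicle in 4 arrays. Strain and sex are not given in the sources used here. The arrays are numbered 1 to 4 in each group and called biological replicates. Separate animals are not stated, and the spread behind every p-value may in part be technical.

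The values are log2 expression values after RMA, which sets all arrays to a common distribution. Any pair of arrays correlated at 0.987 to 0.993 (Pearson, across genes). The first principal component, with 25.5% of the variance, ran from -18.8 to -11.0 on the arrays numbered 1 and 2 and from 14.0 to 15.6 on those numbered 3 and 4, whichever group they belonged to. Of 11 genes fixed for the stem cell gate, 8 were measured, among them Kit, at a mean of 12.88 in eltrombopag and 12.89 in vehicle arrays. Averaged over the list, stem cell genes lay at 9.56 to 9.95 in eltrombopag arrays and 9.64 to 9.87 in vehicle arrays. Single genes of that list ran from a mean of 6.85 over all 8 arrays for Procr to 12.89 for Kit. B cell genes lay at 5.71 to 6.02 in eltrombopag and 5.67 to 5.82 in vehicle arrays, and T and NK cell genes at 5.44 to 5.81 in eltrombopag and 5.71 to 5.87 in vehicle arrays. Slamf1, which encodes CD150, averaged 7.07 in eltrombopag and 7.01 in vehicle arrays. Cd48, whose protein the gate excludes, averaged 6.21 in eltrombopag and 5.96 in vehicle arrays. It was the dimmest of 4 genes listed for the progenitor side of that gate. The others were Cd34 (11.89 in eltrombopag and 11.93 in vehicle arrays), Flt3 (9.08 and 9.12) and Fcgr3 (7.36 and 7.13). That list averaged 8.38 to 8.82 in eltrombopag and 8.28 to 8.65 in vehicle arrays. Megakaryocyte genes lay at 7.36 to 7.56 in eltrombopag and 7.18 to 7.56 in vehicle arrays. The arrays have no true zero, so absence of a marker cannot be read from them.

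The glycolysis genes were well within the measured range. Their means ran from 5.63 for Eno2 to 11.61 for Gapdh, 13 of the 29 lay above the arrays' mean upper quartile of 8.67, and 0 lay below the mean lower quartile of 5.05. The brightness of a probe set also depends on its probes, so these levels do not rank the transcripts of different genes by amount.

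**Figure D1:**
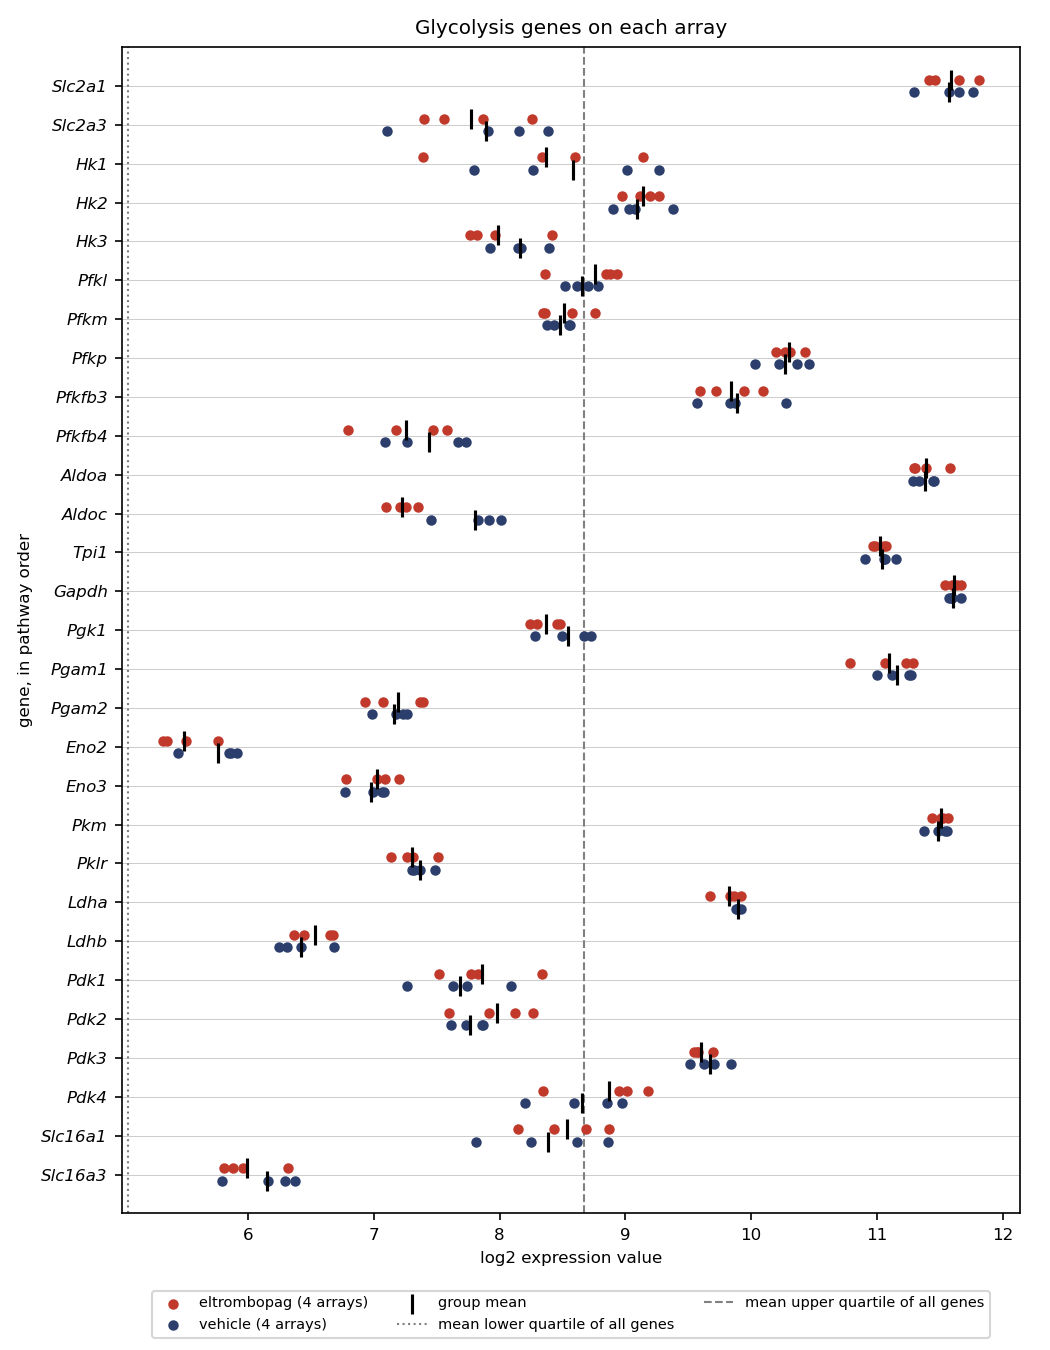
Log2 expression value (horizontal axis) of each glycolysis gene (rows, in pathway order) on the 4 eltrombopag arrays (red, upper row of each gene) and the 4 vehicle arrays (blue, lower row). Black ticks are group means, and the grey lines are the mean lower and upper quartiles of all genes. The groups overlap in every row but that of Aldoc, whose eltrombopag values end at 7.35 and whose vehicle values begin at 7.45.

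Eltrombopag and vehicle did not differ past the threshold in any glycolysis gene. limma called 0 of the 29 at an adjusted p under 0.05, and 0 of all 19505 genes (0%), with an adjusted p of 0.99978 as the smallest. At an unadjusted limma p under 0.05 there was 1 glycolysis gene, Aldoc, where 3.33% of all genes reached that level. With replicate number as a block Aldoc was again the 1 gene at that level, against 4.63% of all genes. The difference, eltrombopag minus vehicle, was above 0 for 15 genes and below 0 for 14, with a median of 0.0054, while over all genes 52.3% lay above 0 with a median of 0.0071. The median absolute log2 difference was 0.073 over the glycolysis genes and 0.083 over all genes. Leaving out arrays moved the glycolysis median between -0.062 (without vehicle array 4) and 0.0074 (without eltrombopag array 4).

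The intervals bound how far these values can have moved. The 95% interval of the log2 difference, which is not adjusted over genes, lay within 1.5-fold, up or down, for 22 of the 29 genes, against 88.0% of all genes. It lay within 2-fold for 28 of the 29, against 98.7% of all genes, and the exception was Hk1. The genes whose interval reached 1.5-fold were Slc2a3, Hk1, Pfkfb4, Aldoc, Pdk1, Pdk4 and Slc16a1. These intervals are from the fit without replicate number. With replicate number as a block, the interval of Hk1 was -0.57 to 0.14, and those of Slc2a3, Pdk1 and Pdk4 also lay within 1.5-fold. Those of Pfkfb4, Aldoc and Slc16a1 still reached 1.5-fold, and that of Eno2 (-0.586 to 0.030) then did too.

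**Figure D2:**
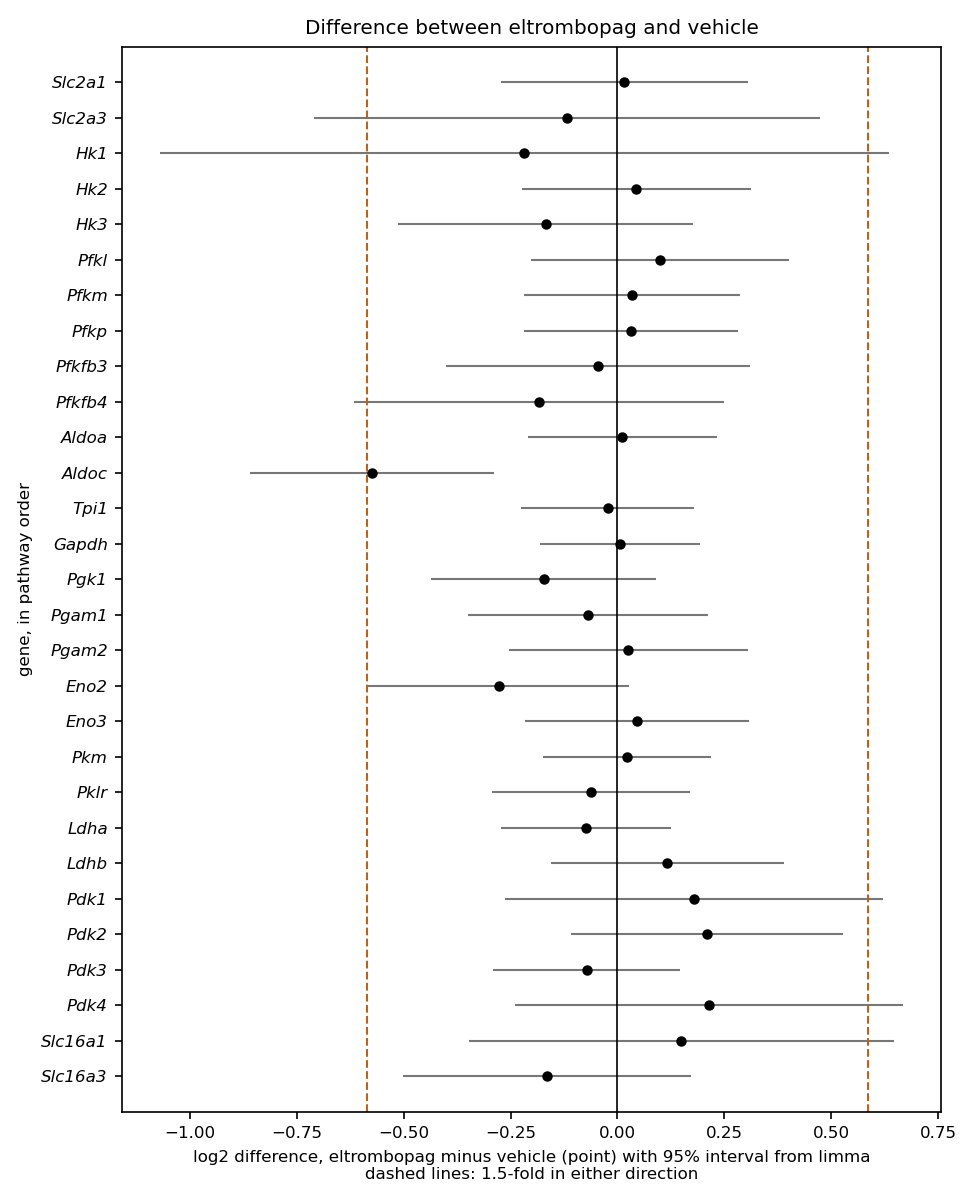
Log2 difference, eltrombopag minus vehicle (point), with its 95% interval from limma for each of the 29 glycolysis genes in pathway order. The dashed lines mark 1.5-fold in either direction. The interval of Aldoc lies wholly below 0 (-0.86 to -0.29), those of all other genes include 0, and none passed adjustment over all genes.

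Glucose enters through facilitative transporters, and Slc2a1 (GLUT1) was among the brightest glycolysis genes. It had 11.66, 11.81, 11.41 and 11.46 in eltrombopag arrays 1 to 4, against 11.65, 11.76, 11.57 and 11.29 in vehicle arrays 1 to 4. The groups overlapped almost fully, and the log2 difference was 0.016 (95% interval -0.27 to 0.31). Slc2a3 (GLUT3), a transporter of high glucose affinity, spread more widely, with 7.56, 7.87, 8.26 and 7.40 in eltrombopag arrays and 7.91, 8.38, 8.15 and 7.11 in vehicle arrays. It was lowest in number 4 of both groups, and its difference of -0.12 had an interval from -0.71 to 0.47.

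Hexokinases trap glucose as glucose-6-phosphate, and the isoforms differed sharply in how steady they were. Hk1, the housekeeping form bound to mitochondria, had 7.39, 9.14, 8.60 and 8.34 in eltrombopag arrays, against 7.80, 9.01, 9.27 and 8.27 in vehicle arrays. Number 1 was lowest in both groups, and the difference of -0.22 (SE 0.39, interval -1.07 to 0.64) was smaller than the spread within either group. It was 0.11 without eltrombopag array 1 and 0.0093 without vehicle array 3. Hk2, an inducible form and HIF target, averaged 9.14 ± 0.13 in eltrombopag and 9.10 ± 0.20 in vehicle arrays (SD, n = 4 each), with a difference of 0.044 (interval -0.22 to 0.31). Hk3, a form found mainly in myeloid cells, averaged 7.99 ± 0.30 in eltrombopag and 8.16 ± 0.19 in vehicle arrays (SD, n = 4 each). Its difference was -0.17 (interval -0.51 to 0.18). Neutrophil and monocyte genes, 10 of 11 measured, averaged 5.97 to 6.64 over the list in eltrombopag arrays and 5.90 to 6.58 in vehicle arrays, and their part in the Hk3 values was not tested.

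Phosphofructokinase commits the sugar to glycolysis, and its 3 subunit genes gave differences of 0.099 for Pfkl (the liver-type subunit), 0.034 for Pfkm (muscle type) and 0.032 for Pfkp (platelet type). The intervals of all 3 included 0 and stayed within 1.5-fold. Pfkl had 8.85, 8.94, 8.88 and 8.36 in eltrombopag arrays and 8.61, 8.70, 8.52 and 8.78 in vehicle arrays, so it was higher with eltrombopag in numbers 1, 2 and 3 and lower in number 4. Pfkfb3, which makes the phosphofructokinase activator fructose-2,6-bisphosphate, averaged 9.84 ± 0.22 in eltrombopag and 9.89 ± 0.29 in vehicle arrays (SD, n = 4 each). Pfkfb4, a second such enzyme, had 6.79, 7.58, 7.47 and 7.18 in eltrombopag arrays and 7.73, 7.09, 7.26 and 7.67 in vehicle arrays. The same-number differences of Pfkfb4 ran from -0.94 in number 1 to 0.49 in number 2, so their mean of -0.18 (interval -0.62 to 0.25) described no pair well.

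Aldolase splits fructose-1,6-bisphosphate, and its isoforms gave the widest contrast within a step. Aldoc, the form best known from brain, had 7.09, 7.21, 7.25 and 7.35 in eltrombopag arrays, against 7.82, 8.01, 7.45 and 7.92 in vehicle arrays. Every eltrombopag value lay below every vehicle value, with the gap narrowest against vehicle array 3. This was the case for 1 of the 29 glycolysis genes and, in that direction, for 1% of all genes. With eltrombopag above, 0 of the 29 had groups apart, against 1.12% of all genes, and in either direction 1 of the 29, against 2.12%. The mean was 7.23 ± 0.11 in eltrombopag and 7.80 ± 0.24 in vehicle arrays (SD, n = 4 each), a log2 difference of -0.57 (SE 0.13) or 0.672-fold. Its unadjusted limma p of 0.0011 ranked 10 among all genes, and its adjusted p was 0.99978. Over 17 other settings of the fit the difference of Aldoc stayed between -0.70 and -0.50, and its adjusted p between 0.98427 and 1.

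Aldoa, the main aldolase of most tissues, had 11.30, 11.39, 11.58 and 11.30 in eltrombopag arrays and 11.29, 11.33, 11.45 and 11.45 in vehicle arrays. Its difference was 0.011 (interval -0.21 to 0.23), and the groups overlapped. The difference of Aldoa minus that of Aldoc was 0.58, positive in all 4 numbers (0.74, 0.86, 0.32 and 0.42), against a pooled SD of 0.24 for this ratio between arrays. Even so, the Aldoa to Aldoc ratio overlapped between the groups. Among 20 isoform pairs in 11 steps, 5 had a shift larger than the pooled SD of their ratio, 2 kept one sign in all 4 numbers, and 0 had groups that did not overlap. These shifts are given as a description, without a test. Some pairs share a gene, so the pairs are not separate items. For single genes in place of ratios, 12.6% of all genes kept one direction in all 4 numbers.

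HIF binds DNA at a core of the letters ACGTG or GCGTG, and the stretches upstream of 4 of these genes are shown. Aldoc and Aldoa were picked after their differences were known, and a part of HIF in those differences was not tested. Pgk1 and Ldha are shown as known HIF targets. Each is the 250 bases before a RefSeq transcript start, on GRCm38.p6, read 5′ to 3′ on the gene's strand, and capitals mark ACGTG or its reverse complement CACGT.
Aldoc (chr11:78322823-78323072, plus strand): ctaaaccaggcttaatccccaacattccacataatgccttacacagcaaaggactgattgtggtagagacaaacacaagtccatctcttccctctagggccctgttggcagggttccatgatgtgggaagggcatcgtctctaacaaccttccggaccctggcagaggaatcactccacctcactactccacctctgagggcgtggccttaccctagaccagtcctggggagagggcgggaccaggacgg
Aldoa (chr7:126799255-126799504, minus strand): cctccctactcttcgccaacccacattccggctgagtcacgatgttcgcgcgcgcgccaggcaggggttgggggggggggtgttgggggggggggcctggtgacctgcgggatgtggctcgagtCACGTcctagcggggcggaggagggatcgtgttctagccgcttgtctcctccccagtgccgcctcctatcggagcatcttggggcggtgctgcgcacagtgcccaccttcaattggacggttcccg
Pgk1 (chrX:106186850-106187099, plus strand): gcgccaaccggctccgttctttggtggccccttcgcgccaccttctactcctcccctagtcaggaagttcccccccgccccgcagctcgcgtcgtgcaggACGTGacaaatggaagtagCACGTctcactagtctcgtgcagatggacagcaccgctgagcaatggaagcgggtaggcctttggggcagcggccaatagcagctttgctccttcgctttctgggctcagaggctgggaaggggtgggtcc
Ldha (chr7:46845554-46845803, plus strand): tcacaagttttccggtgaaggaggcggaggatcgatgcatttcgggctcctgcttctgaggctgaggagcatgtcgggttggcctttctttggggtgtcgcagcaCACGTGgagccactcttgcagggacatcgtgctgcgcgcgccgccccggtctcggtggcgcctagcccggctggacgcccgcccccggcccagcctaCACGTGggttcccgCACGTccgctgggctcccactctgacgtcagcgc
Where a gene had several starts (2 for Aldoc, 3 for Aldoa, 2 for Ldha), the stretch with the most matches is shown, or the one listed first if they tied. Counted on both strands, ACGTG had 0 matches in the Aldoc stretch, 1 in Aldoa, 2 in Pgk1 and 5 in Ldha. In Ldha the palindrome CACGTG counts once on each strand, so overlapping matches were counted separately. GCGTG, left in lower case, had 1 match in the Aldoc stretch and 0 in those of Aldoa, Pgk1 and Ldha. Of the 33 genes listed, 32 had at least 1 such stretch, and 15 of these (46.9%) held ACGTG in at least 1 of them, against 18.5% of 27025 genes in the table. For GCGTG the shares were 62.5% and 30.9%. A gene with more starts has more chances of a match. The listed genes and all genes were not matched for base composition or expression level, so the shares do not show an excess of HIF sites. Counted by stretch, ACGTG was in 36.5% of the 52 stretches of these genes and in 16.6% of all 32851. GCGTG was in 48.1% and 28.2%. Among measured genes, the 14 with ACGTG had a median log2 difference of -0.018, and the 14 without it 0.016. Genes without ACGTG can hold GCGTG, as Aldoc did, so this split does not separate genes with a core from genes lacking it. A match says only that the letters are there, and no binding was measured.

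Below aldolase come the trunk enzymes. Tpi1, which interconverts the triose phosphates, averaged 11.02 ± 0.053 in eltrombopag and 11.04 ± 0.10 in vehicle arrays (SD, n = 4 each). Gapdh, the glyceraldehyde-3-phosphate dehydrogenase often used as a loading control, had 11.63, 11.67, 11.54 and 11.60 in eltrombopag arrays and 11.59, 11.67, 11.59 and 11.57 in vehicle arrays. Its difference of 0.0054 (interval -0.18 to 0.19) was near 0, and it was -0.0044 when the arrays were set to equal medians, which shifts every gene alike. Pgk1, which makes the first ATP of the pathway, had 8.24, 8.48, 8.46 and 8.29 in eltrombopag arrays and 8.28, 8.67, 8.50 and 8.72 in vehicle arrays. It was lower with eltrombopag in all 4 numbers, by 0.037 and 0.038 in numbers 1 and 3, 0.19 in number 2 and 0.43 in number 4. The groups overlapped, and the mean difference was -0.17 (interval -0.44 to 0.091). Lower values in all 4 numbers were seen for 2 of the 29 genes (Aldoc and Pgk1) and for 5.87% of all genes.

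Phosphoglycerate mutase and enolase carry the last steps before pyruvate kinase. Pgam1, the broadly used mutase, averaged 11.09 ± 0.22 in eltrombopag and 11.16 ± 0.13 in vehicle arrays (SD, n = 4 each), and the muscle form Pgam2 7.19 ± 0.23 in eltrombopag and 7.16 ± 0.12 in vehicle arrays. Eno2, the enolase named for neurons, had 5.33, 5.36, 5.51 and 5.76 in eltrombopag arrays and 5.91, 5.85, 5.44 and 5.86 in vehicle arrays. Its difference of -0.28 (SE 0.14, interval -0.58 to 0.027) came from numbers 1 and 2, at -0.58 and -0.49, while numbers 3 and 4 gave 0.068 and -0.11. Without vehicle array 3, which lay apart from the other vehicle arrays, it was -0.39. Eno3, the muscle form, differed by 0.046 (interval -0.22 to 0.31). The ubiquitous Eno1 was not among the genes measured.

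Pyruvate kinase and lactate dehydrogenase close the pathway. Pkm, which encodes the M1 and M2 forms of pyruvate kinase by alternative splicing, had 11.51, 11.53, 11.57 and 11.44 in eltrombopag arrays and 11.37, 11.49, 11.55 and 11.54 in vehicle arrays. The log2 difference was 0.022 (interval -0.17 to 0.22), and a single value per gene cannot separate the splice forms. Pklr, the liver and red cell form, averaged 7.31 ± 0.16 in eltrombopag and 7.37 ± 0.082 in vehicle arrays (SD, n = 4 each). Erythroid genes (6 of 10 measured) averaged 6.90 to 7.40 over the list in eltrombopag arrays and 6.95 to 7.22 in vehicle arrays, and their part in the Pklr values was not tested. Ldha, the lactate-forming subunit and a HIF target, had 9.84, 9.67, 9.92 and 9.86 in eltrombopag arrays, against 9.89, 9.88, 9.89 and 9.92 in vehicle arrays. The vehicle values lay within a SD of 0.016, and the difference was -0.073 (interval -0.27 to 0.13). Ldhb, the subunit that favours pyruvate, averaged 6.53 ± 0.15 in eltrombopag and 6.42 ± 0.19 in vehicle arrays (SD, n = 4 each), with a difference of 0.12 (interval -0.16 to 0.39).

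Pyruvate dehydrogenase kinases switch off the entry of pyruvate into the TCA cycle, and 3 of the 4 genes had positive differences, none of which passed. Pdk4, a starvation-induced form, had 8.95, 8.35, 9.18 and 9.01 in eltrombopag arrays and 8.86, 8.20, 8.97 and 8.59 in vehicle arrays. It was the 1 glycolysis gene higher with eltrombopag in all 4 numbers, by 0.091, 0.15, 0.20 and 0.42, where 6.73% of all genes were. The groups overlapped. The mean difference of Pdk4, 0.21, had an interval from -0.24 to 0.67, and from -0.011 to 0.44 with replicate number as a block. It was 0.39 without eltrombopag array 2 and 0.063 without vehicle array 2, the lowest array of each group. Pdk2, a widely expressed form, had 7.60, 7.92, 8.12 and 8.27 in eltrombopag arrays and 7.86, 7.73, 7.87 and 7.61 in vehicle arrays, a difference of 0.21 (interval -0.11 to 0.53). Pdk1, a HIF target, differed by 0.18 (interval -0.26 to 0.62), with its same-number differences between -0.32 and 0.70. It was 0.022 without eltrombopag array 3, 0.040 without vehicle array 4 and 0.32 without vehicle array 2. Pdk3 differed by -0.072 (interval -0.29 to 0.15).

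Lactate leaves through MCT4, encoded by Slc16a3, and passes either way through MCT1, encoded by Slc16a1. Slc16a1 had 8.69, 8.87, 8.43 and 8.15 in eltrombopag arrays and 8.86, 8.25, 7.81 and 8.62 in vehicle arrays. Its same-number differences were 0.62 in numbers 2 and 3 but -0.18 and -0.47 in numbers 1 and 4, and the mean difference was 0.15 (interval -0.35 to 0.65). Slc16a3 averaged 5.99 ± 0.23 in eltrombopag and 6.15 ± 0.26 in vehicle arrays (SD, n = 4 each), a difference of -0.16 (interval -0.50 to 0.17).

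**Figure D3:**
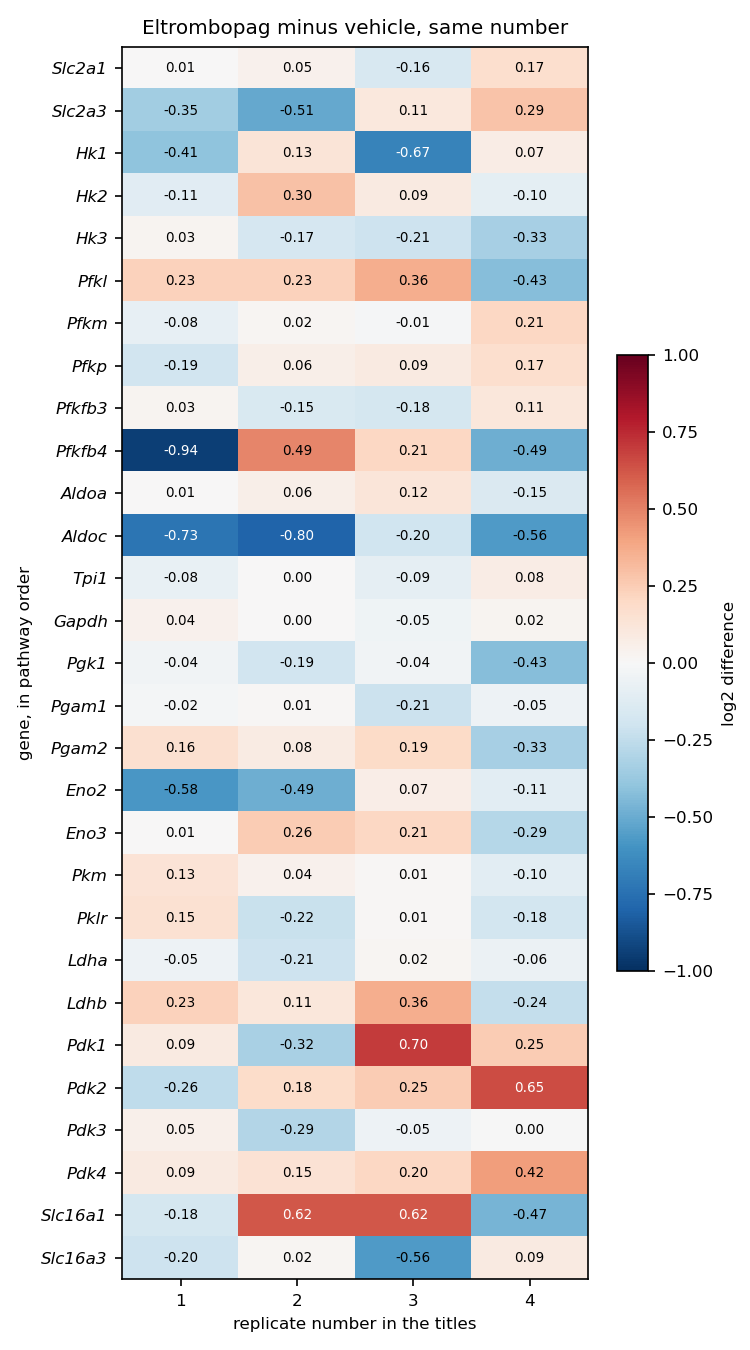
Log2 difference, eltrombopag minus vehicle, between the arrays of the same replicate number (columns) for each glycolysis gene (rows, in pathway order), coloured from blue (lower with eltrombopag) to red (higher). Aldoc and Pgk1 are below 0 in all 4 columns, Pdk4 is above 0 in all 4, and the other genes change sign.

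Replicate number was compared next, with the drug as a covariate. Arrays of the same number deviated from their group means together, with correlations across genes from 0.133 to 0.286. Arrays of different numbers correlated at -0.203 to 0.167. Numbers 3 and 4 correlated across the groups at 0.166 and 0.167, above the 0.133 of number 4. limma's F test among the 4 numbers, with group as a covariate, called 0 of the 29 glycolysis genes and 41 of all genes (0.21%), and between 3 and 17 of all genes when any 1 of the 8 arrays was left out. At an unadjusted p under 0.05 there were 5 glycolysis genes (17.2% of the 29), against 10.2% of all genes, namely Hk1, Pdk4, Slc2a3, Pfkfb3 and Hk3. That test takes both arrays of a number to be independent samples, and it describes these 4 numbers alone.

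Hk1 had the smallest p of the 5. Averaged over the arrays of a number, it lay at 7.59, 9.08, 8.93 and 8.30 in numbers 1 to 4, a range of 1.48 log2 units, above that of 99.7% of all genes. Its adjusted p in the F test was 0.133. Slc2a3 lay at 7.73, 8.13, 8.21 and 7.25 (adjusted p 0.336 in limma), so both of these genes were higher in numbers 2 and 3 than in numbers 1 and 4. Pdk4 lay at 8.90, 8.27, 9.08 and 8.80 (adjusted p 0.249 in limma), lowest in number 2. Neutrophil and monocyte genes were also lowest in number 2 (list means of 6.30, 5.94, 6.56 and 6.35 in numbers 1 to 4), as were erythroid genes (7.02, 6.92, 7.31 and 7.20), megakaryocyte genes (7.28, 7.27, 7.46 and 7.56) and stromal and endothelial genes (6.02, 5.91, 6.00 and 5.99). The other 4 marker lists were lowest in another number. Their part in the Pdk4 values was not tested. Hk3 was highest in number 1, at 8.40, 7.84, 8.06 and 7.99, and Pfkfb3 in number 3, at 9.58, 9.80, 10.19 and 9.89.

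**Figure D4:**
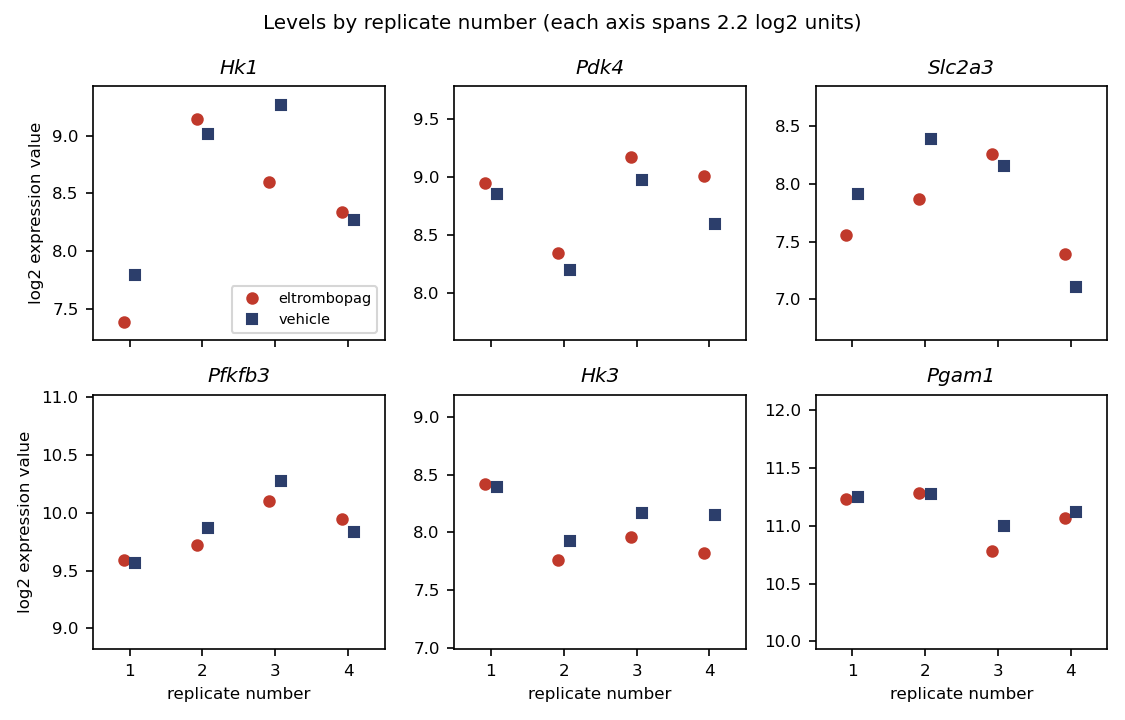
Log2 expression value on each array by replicate number for the 6 glycolysis genes with the smallest p in limma's F test among numbers, with eltrombopag arrays as red circles and vehicle arrays as blue squares. Numbers carry no order. In Hk1 both arrays numbered 1 lie lowest, at 7.39 with eltrombopag and 7.80 with vehicle.

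The spread between replicates differed widely across the set. The pooled within-group SD was under 0.1 for 4 genes, Gapdh (0.049), Pkm (0.069), Ldha (0.075) and Tpi1 (0.081), and over 0.3 for 6 genes, Hk1 (0.70), Slc2a3 (0.48), Slc16a1 (0.39), Pdk4 (0.35), Pdk1 (0.34) and Pfkfb4 (0.33). The first 4 encode enzymes of steps from the triose phosphates to lactate. The other 6 encode transporters, kinases that regulate the flow and a hexokinase isoform. Genes of both kinds also lay between these limits, among them Pgk1 (0.16), Pgam1 (0.18), the kinase Pdk3 (0.11) and the transporter Slc2a1 (0.19). The median SD was 0.183 over the 29 genes and 0.180 over all genes, with 8 of the 29 above the upper quartile of all genes (0.244) and 7 below the lower quartile (0.133). Across the 29 genes, which share the same 8 arrays, SD and mean level had a Spearman correlation of -0.43, and across all genes -0.18.

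**Figure D5:**
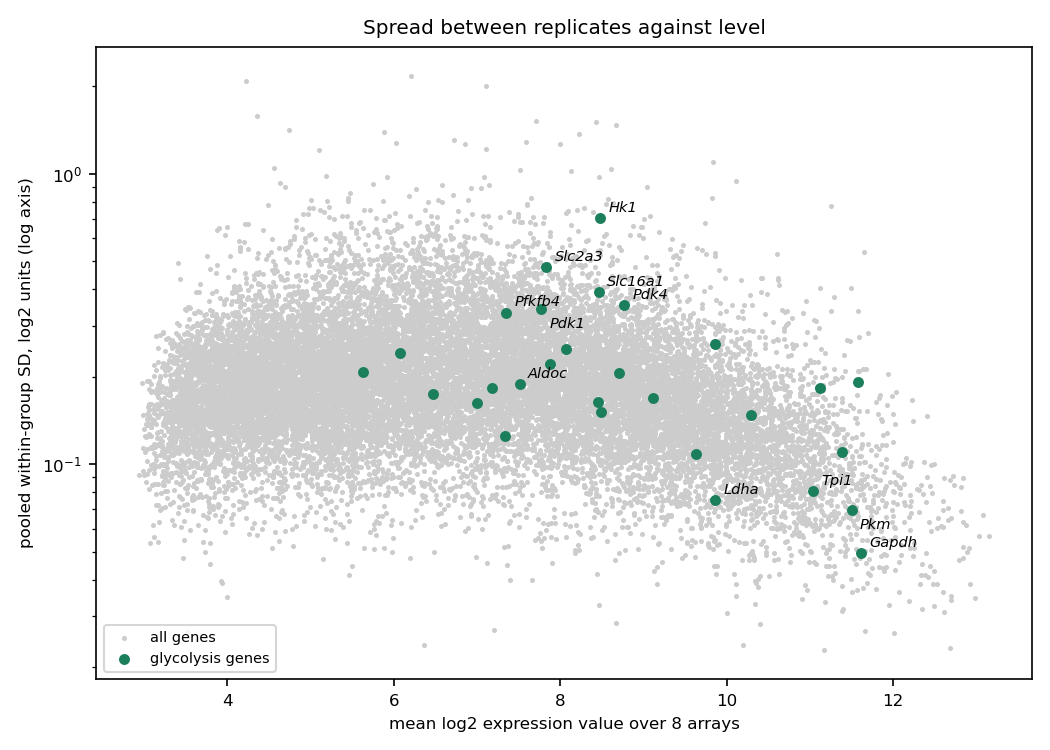
Pooled within-group SD in log2 units (vertical log axis) against mean log2 expression value over 8 arrays for all genes (grey) and the 29 glycolysis genes (green), with the most and least variable and Aldoc named. Hk1 lies at an SD of 0.70 and Gapdh at 0.049.

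Genes that feed, branch from or oppose glycolysis were counted in 6 lists, and 0 of their 61 measured genes passed over all genes (0% of all genes passed). Of 11 other glucose transporters, 6 had positive and 5 negative differences (median 0.025). Slc2a9, a urate and sugar transporter, differed by 0.41 (SE 0.29) and the sodium-coupled Slc5a2 by -0.25 (SE 0.15). Of 13 other isoforms and partners of the steps, 5 were above 0 (median -0.039), with Slc16a10, an aromatic amino acid transporter of the same family, at -0.40 (SE 0.16) and the sperm form Gapdhs at -0.35 (SE 0.17). Genes for the entry of pyruvate into mitochondria were above 0 in 3 of 9 cases (median -0.0043). Their smallest p-values belonged to Pdhx (-0.30, SE 0.18), a structural component of pyruvate dehydrogenase, and Pdha1 (0.17, SE 0.14), its catalytic subunit.

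Genes of gluconeogenesis and of brakes on glycolysis were above 0 in 8 of 9 cases, where 52.3% of all genes were, with a median of 0.048. Of these 9 genes, 6 had a mean below the arrays' mean median of 6.78. The brightest of the 9 was the 1 below 0 (-0.032). The named ones were Pcx (0.22, SE 0.11), pyruvate carboxylase, and Pck2 (0.14, SE 0.11), the mitochondrial phosphoenolpyruvate carboxykinase. Pentose phosphate genes were above 0 in 3 of 6 cases (median -0.029), with the isomerase Rpia at -0.19 (SE 0.11) and the epimerase Rpe at 0.25 (SE 0.22). Genes of glycogen and of the entry of other hexoses were above 0 in 8 of 13 cases (median 0.069). Pygm, the muscle glycogen phosphorylase, differed by -0.23 (SE 0.10) and the branching enzyme Gbe1 by -0.24 (SE 0.18). All of these had an adjusted p of 0.99978 in limma.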

How the data were processed

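Per the labels' protocols, about 10 ng of RNA per sample went into a 3' amplification and labelling kit. The deposited table holds log2 expression values for 22206 probe sets on 8 arrays. RMA and the tools oligo and limma are listed, with no version, in the submitters' processing notes. No source used here gives the probe sets' genome build. The platform annotation gave 1 symbol for 19572 probe sets, more than 1 for 0, and none for 2634. Where several probe sets named a gene (55 genes), that with the highest mean over 8 arrays was used, which gave 19505 genes. No filter was set on dim genes.

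limma 3.58.1 in R 4.3.3 (lmFit, eBayes, two-sided) tested eltrombopag against vehicle with group as the only term, and replicate number by an F test with group as a covariate. P-values were adjusted by Benjamini-Hochberg over the whole table, and genes were called at an adjusted p under 0.05. In no pair of arrays did any gene have equal values (tolerance 0). Both tests were first tested on simulated data, with 200 genes changed in each. Between groups, 31% of the genes changed by 0.5 log2 units were called, and 80% of those changed by 1. Among numbers, 29% of those changed by 1 were called, and 80% of those changed by 2. The number of arrays limits the precision. All measured glycolysis genes are named, and of each further list the 2 genes with the smallest p; these genes and lists, and the marker lists, were chosen with earlier results of these data known. Of 69 entries in the further lists 61 were measured, and of 66 marker entries 56. Same-number arrays correlated in their deviations from the group means at 0.133 to 0.286, arrays of different numbers at -0.203 to 0.167. All 4 same-number correlations exceeded 0.1. So did those between numbers 3 and 4 across the groups (0.166 and 0.167), above the 0.133 of number 4. The main fit took no pairs. Pairing by replicate number was used for the same-number differences and the replicate block. The labels do not state such a pairing. Alternatives were the replicate block, 2 further scalings, a filter on dim genes, the mean of probe sets, and arrays left out. Promoter sequences are RefSeq's.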

Additional observations from a re-analysis of the deposited data

Results flagged for a closer look

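Among the 58 sets of 4 arrays that the 29 glycolysis genes give (1 set per gene and group), 2 held an array lying apart from its group by Dixon's criterion. Chance gives about 1 in 20, or about 2.9. Pfkl, the liver-type phosphofructokinase subunit, was at 8.36 in eltrombopag array 4, while arrays 1 to 3 of that group spanned 8.85 to 8.94, a gap of 0.847 of the whole range. Without that array its log2 difference was 0.23 in place of 0.099. Eno2, an enolase isoform, was at 5.44 in vehicle array 3, while the remaining vehicle arrays spanned 5.85 to 5.91, a gap of 0.868 of the whole range.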

How the results depend on the processing

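The count of called genes between eltrombopag and vehicle was 0, over all genes and among the glycolysis genes, in all 17 alternatives, and the replicate block changed no call (904 of all genes at an unadjusted limma p under 0.05 in place of 650, and 1 glycolysis gene in place of 1). The smallest adjusted p of a glycolysis gene in any of these fits was 0.98427. The count of glycolysis genes with a positive difference was 15 or 14 in the fits on all 8 arrays and between 11 and 15 when arrays were left out, and their median then ran from -0.062 to 0.0074. The filter on dim genes kept 26 of the 29. The genes called among replicate numbers were 41, and between 3 and 17 with 1 array left out, with 0 glycolysis genes called in every one of 12 alternatives (smallest adjusted p 0.0990). Of the 29 differences, 12 had the same sign in all settings in which the gene was tested. Gapdh was -0.0044 with equal medians. Leaving out arrays turned the sign of 17 genes in at least 1 fit, and moved Aldoa between -0.051 and 0.063, Eno3 between -0.024 and 0.16, Gapdh between -0.015 and 0.029, Hk1 between -0.48 and 0.11, Hk2 between -0.041 and 0.14, Pdk3 between -0.12 and 0.00058, Pfkfb3 between -0.15 and 0.083, Pfkfb4 between -0.41 and 0.069, Pfkm between -0.048 and 0.088, Pfkp between -0.048 and 0.11, Pgam1 between -0.13 and 0.034, Pgam2 between -0.042 and 0.15, Pkm between -0.016 and 0.063, Slc16a1 between -0.041 and 0.36, Slc2a1 between -0.076 and 0.082, Slc2a3 between -0.38 and 0.048 and Tpi1 between -0.069 and 0.013. Of the genes that kept their sign, all but Aldoc moved by over 1.5 times in at least 1 fit with arrays left out, with ranges of Eno2 -0.39 to -0.18, Hk3 -0.31 to -0.091, Ldha -0.10 to -0.023, Ldhb 0.035 to 0.24, Pdk1 0.0052 to 0.35, Pdk2 0.06 to 0.36, Pdk4 0.063 to 0.39, Pfkl 0.012 to 0.28, Pgk1 -0.26 to -0.088, Pklr -0.13 to -0.0045 and Slc16a3 -0.29 to -0.031. The cause was not tested.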
